A study of Mus musculus with 9 samples.

Results

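The genes described here encode general splicing factors, chosen by symbol: the SR proteins (Srsf), the SF3a and SF3b subunits (Sf3a, Sf3b), the Sm and other snRNP proteins (Snrp), the hnRNP proteins (Hnrnp) and the pre-mRNA processing factors (Prpf). Snrpn and 2 names that mark pseudogenes (Hnrnpa1l2-ps and Snrp1c-ps2) were left out, and a summed count of at least 90 over all libraries was required. The rule gave 61 of 34590 genes, and all 61 passed the count limit: 11 SR, 8 SF3, 11 Snrp, 18 Hnrnp and 13 Prpf genes. RNA was sequenced from telencephalons of mouse embryos at E12.5, an embryonic stage when progenitors divide and the first neurons form. The 5 wild-type (WT) libraries and the 4 libraries from embryos lacking Lats1 and Lats2 through Nestin-Cre (dKO) all came from a mixed strain background. Lats1 and Lats2 are Hippo pathway kinases that hold back the coactivators YAP and TAZ, and Nestin-Cre recombines mainly in neural progenitors and their progeny, so blood and vessel cells of the dKO tissue are largely spared. The labels give the controls only as wild type, with no word on floxed alleles or Cre, and give no litter. The same number of counted cells was taken for every library, and ERCC spike-ins, synthetic RNAs of known amount, were added per cell before RNA extraction.

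Splicing removes introns from pre-mRNA on the spliceosome, which assembles on each intron from small nuclear ribonucleoproteins (snRNPs). The Sm proteins form a ring on the small nuclear RNAs, SF3a and SF3b hold the U2 snRNP at the branch site, and the Prpf factors serve the U4/U6.U5 tri-snRNP, the Prp19 complex and catalysis. SR proteins mostly favour the use of exons through exonic enhancers, hnRNP proteins often oppose it, and in the embryonic brain their balance shapes the exons that separate progenitors from neurons.

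Lats1, a target of the knockout, had 135, 133, 125, 133 and 136 CPM (counts scaled to a common library size) in WT 1 to 5 and 58.8, 61.3, 59.5 and 59.5 in dKO 1 to 4, so every dKO library was below every WT library. With all libraries Lats2 rose relative to the library, by 0.69 (SE 0.18, adjusted p = 0.0144) on the log2 scale, but the change was 0.42 without WT 2, 3 and 4 (adjusted p = 0.209). Counts over a whole gene include reads from outside a deleted part, so Lats2 does not check that label. Gene counts were 12906561 to 45803152 per library. Gene counts per spike-in count were 58.1 ± 6.10 (SD, n = 5) in WT and 79.1 ± 5.90 (SD, n = 4) in dKO, a 1.36-fold difference (two-sided exact permutation test, p = 0.00794, the smallest this design can give). WT 2, 3 and 4 stood apart: 39.3% to 41.3% of their reads lay in no gene, against 32.0% to 35.6% in the other libraries. Values without these 3 libraries are given beside the main calls.

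Almost every splicing factor gene had more RNA per counted cell in dKO. Summed over the 61 genes, there were 0.961, 0.844, 1.07, 1.02 and 1.12 counts per spike-in count in WT 1 to 5 and 1.30, 1.54, 1.38 and 1.45 in dKO 1 to 4. The groups did not overlap, and the ratio of their means was 1.41. In edgeR's quasi-likelihood test scaled to the spike-ins, with Benjamini-Hochberg adjustment over 17182 genes and a threshold of 0.05, 60 of 61 genes rose and 0 fell. Of all genes tested 61.1% rose and 0.698% fell, and of the 10570 genes within the members' range of WT levels 79.0% rose. Log2 fold changes ran from 0.27 to 0.75, with a median of 0.51 (1.43-fold) beside 0.43 (1.34-fold) over all genes. In bulk tissue, a change in the shares of cell types and a change of RNA within cells cannot be told apart. Srsf12, the SR gene with the lowest level per length, did not pass. It had 0.472, 0.499, 0.656, 0.689 and 0.569 counts per 1000 spike-in counts in WT 1 to 5 and 0.670, 0.648, 0.720 and 0.755 in dKO 1 to 4, overlapping groups, and a log2 fold change of 0.27 (SE 0.15, adjusted p = 0.122). Hnrnpa1 and Prpf40b passed but their groups overlapped, while the other 58 genes were higher in every dKO library than in every WT library. Without WT 2, 3 and 4, 57 of the 61 genes rose and 0 fell, beside 49.1% and 0.25% of all genes; Hnrnph1, Prpf18, Prpf40b and Srsf12 did not pass. Leaving out a library in turn ended 2 calls: that of Hnrnph1 without dKO 2 (adjusted p = 0.0510), and that of Prpf40b without WT 1, WT 2, dKO 2 or dKO 3 (adjusted p = 0.0521 to 0.0922).

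**Figure D1:**
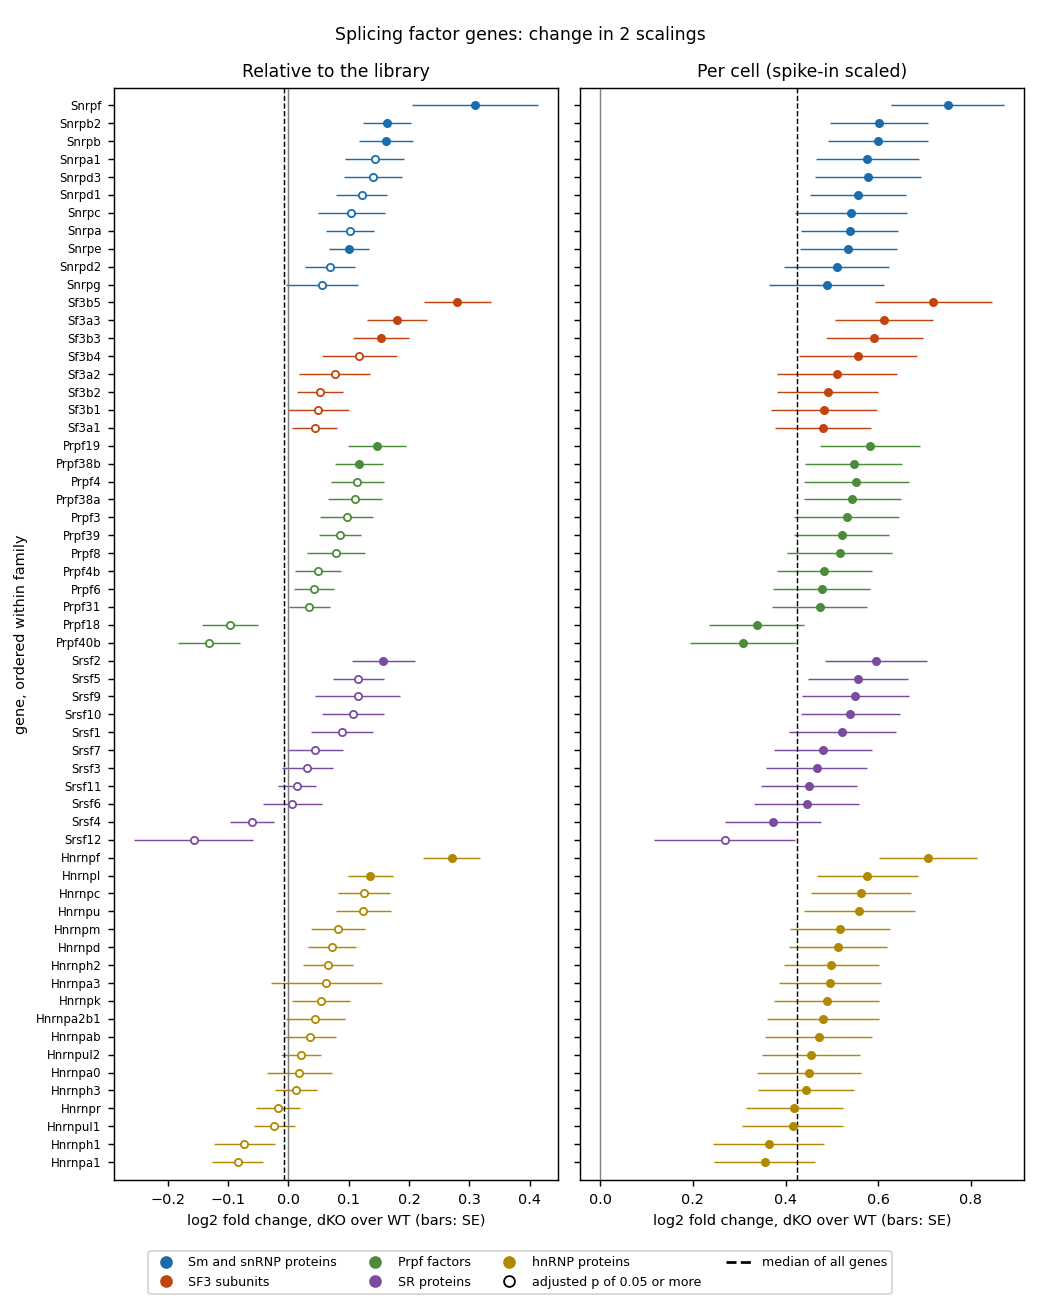
Log2 fold change, dKO over WT, of 60 of the 61 genes relative to the library (left) and per cell (right), grouped by family; bars are SE, open circles have an adjusted p of 0.05 or more and the dashed line is the median of all genes (-0.01 left, 0.43 right). All circles but that of Srsf12 are filled on the right, and 12 are filled on the left.

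Relative to the rest of the transcriptome the same genes moved little. The 61 genes together held 1.80, 1.69, 1.69, 1.68 and 1.79% of gene counts in WT 1 to 5 and 1.83, 1.84, 1.76 and 1.74% in dKO 1 to 4. The means were 1.73% ± 0.0593 (SD, n = 5) and 1.79% ± 0.0486 (SD, n = 4), and the groups overlapped through WT 1 and WT 5, the highest WT libraries. With TMM scaling, which compares a gene with the typical gene of its library, 12 of 61 genes rose, 0 fell and 49 did not pass. Over all genes 13.7% rose and 12% fell, and in the members' range of levels 17.3% rose and 16.1% fell. The 12 genes were Snrpf, Snrpb2, Snrpb and Snrpe, Sf3b5, Sf3a3 and Sf3b3, Prpf19 and Prpf38b, Srsf2, and Hnrnpf and Hnrnpl. The median log2 fold change was 0.08 (1.05-fold) beside -0.01 over all genes, 53 genes lay above 0 and 8 below, and 34 lay within 0.1 of 0. The largest change, that of Snrpf, was 1.24-fold. In 14 genes every dKO library was above every WT library, and in 0 below; over all genes these shares were 12.6% and 9.74%.

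The relative calls depended on which WT libraries were used. WT 1 and WT 5 were both above WT 2, 3 and 4 in 32 of the 61 genes and both below in 1, against 20.8% and 21.9% of all genes. Without WT 2, 3 and 4, 0 of 61 genes rose and 0 fell by edgeR's adjusted p (4 and 1 at an unadjusted p under 0.05), beside 2.51% and 0.949% of all genes. The smallest adjusted p was then 0.0684, that of Snrpf, and the median log2 fold change was 0.03. All 12 genes stayed above 0. When a library was left out, the count of 12 fell to 4 without WT 2, 3 without WT 3, 3 without WT 4, 5 without dKO 1 and 4 without dKO 2. In these fits 10.5%, 10.4%, 11.1%, 11.1% and 12.6% of all genes rose, in that order. Without WT 1, WT 5, dKO 3 or dKO 4 the counts were 12, 14, 11 and 8. The shares of all genes were then 14.3%, 13.2%, 13.6% and 11.1%. Hnrnpf, Sf3b5 and Snrpb2 passed without any 1 library, and the other 9 genes each lost the call at least once. With the share of reads in no gene as a covariate, Hnrnpf and Sf3b5 were the 2 genes that passed. Of all genes 5.79% rose and 4.27% fell in that fit. The part that this share plays in the relative rises was not tested beyond these fits.

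**Figure D2:**
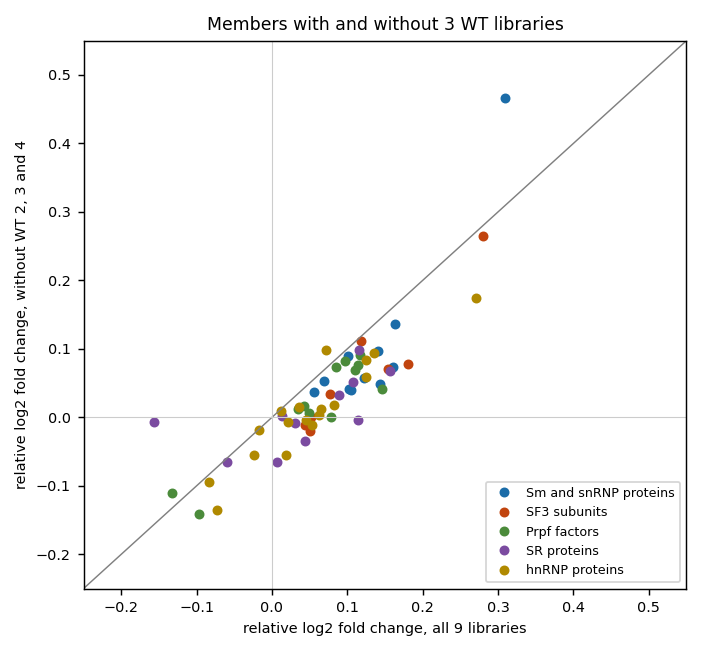
Relative log2 fold change of 60 of the 61 genes with all 9 libraries (x axis) and without WT 2, 3 and 4 (y axis), coloured by family, with the line of equality. Most points lie below that line: the median of the 61 genes is 0.08 with all libraries and 0.03 without the 3.

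The RNAs of these genes varied little between WT libraries, with a median coefficient of variation of 3.98% in CPM, against 8.21% over all genes tested and 5.34% over genes in the same range of levels. Per kilobase of transcript, the mean level over all libraries spanned 3.22 CPM per kb (Srsf12) to 733 (Hnrnpa2b1), and Hnrnph1 (642), Hnrnpab (405), Srsf7 (353) and Hnrnpk (304) followed. By family, the median level per length was 127 CPM per kb for SR, 121 for hnRNP, 48.6 for Sm and snRNP, 47.6 for SF3 and 33.7 for Prpf genes. Reads with more than 1 possible place in the genome were not counted, and several of these genes (Hnrnpa1, Hnrnpa3, Snrpe and Snrpg among them) are known to have processed pseudogenes, so their levels are uncertain.

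Promoter windows were compared by motif letters as a description, with no link to the changes in RNA tested. RefSeq windows of 300 bases across the transcription start, mostly upstream of it (GRCm38.p6), were found for 54 of the 61 genes, 71 windows in all. An ETS core (CCGGAA, searched on both strands like the others) was in 49.3% of them, against 24% of the windows of tested genes and 14.9% of all windows. A CCAAT box (CCAAT) was in 49.3%, 37.3% and 37.4%, and an E-box (CACGTG), which Myc and Max bind, in 15.5%, 9.55% and 7.15%. A TEAD core (GGAATG), the letters bound by the DNA-binding partners of YAP and TAZ, was in 7.04% of the members' windows, 12.4% of tested genes' and 14.7% of all windows. It was found in Hnrnpl, Prpf3, Prpf4, Sf3a1 and Snrpb2. Of these, Hnrnpl and Snrpb2 rose relative to the library, and the windows of both are printed below. Snrpf, Snrpe, Sf3a3, Sf3b3, Prpf19, Prpf38b, Srsf2 and Hnrnpf rose too, and their windows held no TEAD letters. Snrpb and Sf3b5 had no window. The printed windows are examples and do not stand for all genes that rose. ETS and TEAD letters can share GGAA. The median GC content was 60.3% in the members' windows, 60.7% in those of tested genes and 52.7% in all. A match is a description of letters and not a binding site, and no difference between shares was tested. Windows of 3 genes that rose relative to the library and of Srsf12, the gene that did not pass per cell, are printed 5′ to 3′ with matches in capitals: Snrpb2 has ETS and TEAD letters, Srsf2 a CCAAT box next to an ETS core, Hnrnpl a TEAD core and 4 CCAAT boxes, and Srsf12 none of the motifs, as in 6 other genes (Hnrnph3, Sf3b1, Snrpa1, Snrpd2, Srsf6 and Srsf9), all of which rose per cell.
Snrpb2 (chr2:143062819-143063118, plus strand): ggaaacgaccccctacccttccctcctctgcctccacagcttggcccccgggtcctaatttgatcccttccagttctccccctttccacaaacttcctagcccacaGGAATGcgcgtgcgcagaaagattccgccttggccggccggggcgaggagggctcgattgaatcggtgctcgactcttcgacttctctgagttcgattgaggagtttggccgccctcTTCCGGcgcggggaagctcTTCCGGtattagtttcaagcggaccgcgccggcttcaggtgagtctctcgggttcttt
Srsf2 (chr11:116853045-116853344, minus strand): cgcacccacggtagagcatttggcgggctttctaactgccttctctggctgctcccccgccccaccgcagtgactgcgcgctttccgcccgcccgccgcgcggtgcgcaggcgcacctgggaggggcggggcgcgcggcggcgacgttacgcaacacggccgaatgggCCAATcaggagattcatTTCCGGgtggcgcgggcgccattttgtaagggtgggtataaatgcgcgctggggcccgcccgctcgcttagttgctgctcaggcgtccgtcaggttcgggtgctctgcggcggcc
Hnrnpl (chr7:28810640-28810939, plus strand): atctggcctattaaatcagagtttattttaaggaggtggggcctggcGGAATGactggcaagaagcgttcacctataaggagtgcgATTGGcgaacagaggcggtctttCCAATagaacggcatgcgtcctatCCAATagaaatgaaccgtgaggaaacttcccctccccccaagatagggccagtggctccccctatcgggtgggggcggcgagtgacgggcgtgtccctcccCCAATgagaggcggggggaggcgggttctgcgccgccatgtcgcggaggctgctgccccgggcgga
Srsf12 (chr4:33209022-33209321, plus strand): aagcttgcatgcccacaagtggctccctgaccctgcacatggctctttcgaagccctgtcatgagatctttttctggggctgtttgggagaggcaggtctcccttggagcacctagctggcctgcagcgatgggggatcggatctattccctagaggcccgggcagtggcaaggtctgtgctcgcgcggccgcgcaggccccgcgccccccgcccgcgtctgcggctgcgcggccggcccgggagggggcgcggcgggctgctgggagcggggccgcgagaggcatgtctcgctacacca

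Of the 11 Sm and snRNP protein genes, 4 rose relative to the library and 0 fell, beside 13.7% and 12% of all genes. All 11 lay above 0, with a median log2 fold change of 0.12. Per cell, where 61.1% of all genes rose, all 11 rose (median 0.56). Their summed level was 861, 816, 804, 804 and 848 CPM in WT 1 to 5 and 913, 920.2, 891 and 906 in dKO 1 to 4. These groups did not overlap, and the ratio of the means was 1.10. Per spike-in count the sum was 0.0481 ± 0.00482 (SD, n = 5) in WT and 0.0715 ± 0.00598 (SD, n = 4) in dKO. Snrpb2, a protein of the U2 snRNP whose promoter is printed above, had 82.04, 81.2, 78.8, 77.4 and 81.3 CPM in WT 1 to 5 and 91.4, 89.1, 84.0 and 94.7 CPM in dKO 1 to 4. Every dKO library was above every WT library, and the relative change was 0.16 (SE 0.04, adjusted p = 0.0124). It was 0.14 (adjusted p = 0.243) without WT 2, 3 and 4. Snrpb, which encodes the SmB proteins of the ring, had 189, 166, 168, 172 and 184 CPM in WT 1 to 5 and 192, 201, 191 and 202 CPM in dKO 1 to 4. WT 1 and WT 5 were nearest to the dKO values, and the change was 0.16 (SE 0.04, adjusted p = 0.0215); the call was lost without WT 2, WT 3, WT 4, dKO 2 or dKO 4 (adjusted p = 0.0528 to 0.0588). For Snrpb it was 0.07 (adjusted p = 0.460) without WT 2, 3 and 4. Snrpe, another ring protein, had 81.8, 83.8, 82.8, 81.0 and 85.1 CPM in WT 1 to 5 and 91.6, 90.6, 86.1 and 87.2 CPM in dKO 1 to 4. The groups were close but did not overlap, with a change of 0.10 (SE 0.03, adjusted p = 0.0482); leaving out any library but WT 5 or dKO 3 ended the call (adjusted p = 0.0633 to 0.115). For Snrpe it was 0.09 (adjusted p = 0.404) without WT 2, 3 and 4.

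Snrpf, a ring protein too, had 33.3, 39.3, 32.9, 31.8 and 25.6 CPM in WT 1 to 5 and 44.1, 38.6, 41.6 and 36.8 CPM in dKO 1 to 4. WT 2 lay among the dKO libraries and WT 5 lay far below the other WT libraries. The relative change was 0.31 (SE 0.10, adjusted p = 0.0497). The call was lost when any library but WT 2 or dKO 4 was left out (adjusted p = 0.0580 to 0.135). For Snrpf the change was 0.47 (adjusted p = 0.0684) without WT 2, 3 and 4. Per cell Snrpf had the highest log2 fold change of all 61 genes, 0.75 (SE 0.12, adjusted p = 7.95e-06), from 1.80, 1.96, 2.10, 1.94 and 1.6004 counts per 1000 spike-in counts in WT 1 to 5 and 3.09, 3.25, 3.27 and 3.03 in dKO 1 to 4. Snrpg, the ring protein with the lowest level per length, had 23.1, 21.1, 21.5, 21.6 and 20.8 CPM in WT 1 to 5 and 23.3, 24.1, 20.8 and 21.4 CPM in dKO 1 to 4. Its groups overlapped, with a relative change of 0.06 (SE 0.06, adjusted p = 0.533). The other 6 genes did not pass the relative test: Snrpd1, Snrpd2 and Snrpd3, which encode the SmD proteins of the ring, had 0.12, 0.07 and 0.14, Snrpa and Snrpc of the U1 snRNP had 0.10 and 0.10, and Snrpa1 of the U2 snRNP had 0.14.

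**Figure D3:**
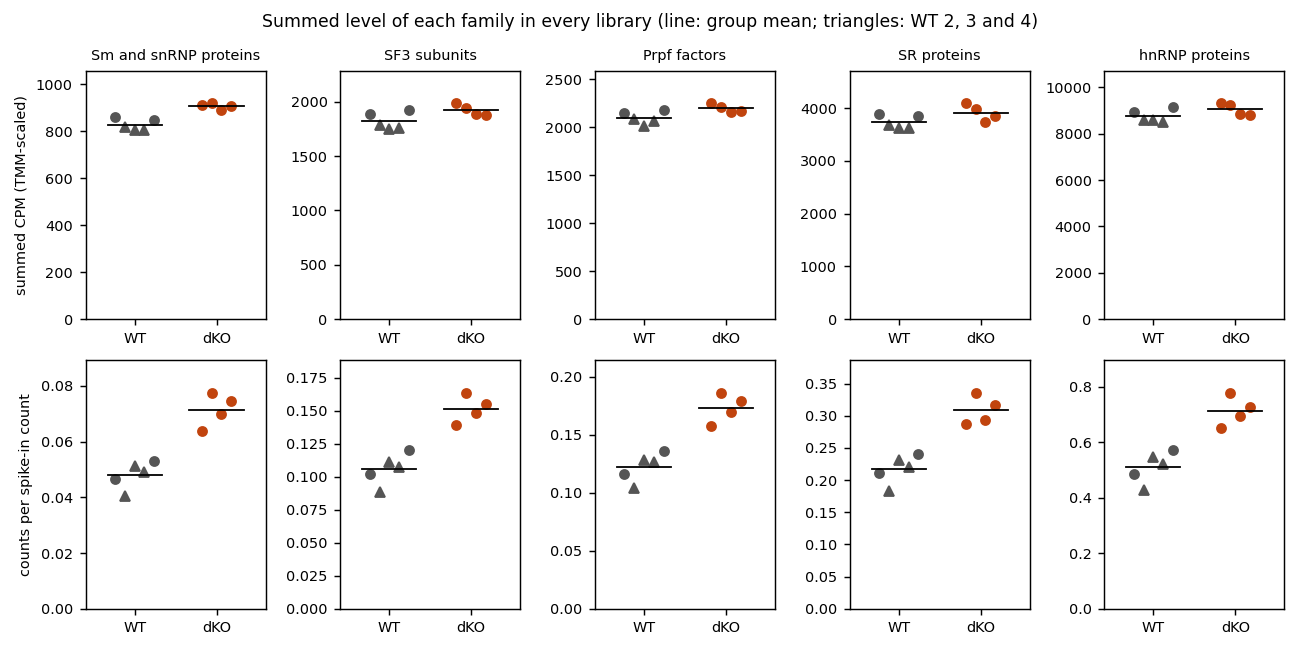
Summed level of each family in every library, as TMM-scaled CPM (top row) and as counts per spike-in count (bottom row); horizontal lines are group means, triangles are WT 2, 3 and 4, and all axes start at 0. In the bottom row the groups are apart in all 5 families, and in the top row only the Sm and snRNP family is apart (804 to 861 CPM in WT, 891 to 920 in dKO).

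Of the 8 SF3 genes, 3 rose relative to the library and 0 fell, beside 13.7% and 12% of all genes. All 8 lay above 0 (median 0.10). Per cell, where 61.1% of all genes rose, all 8 rose (median 0.53). The summed level was 1885, 1786, 1749, 1757 and 1926 CPM in WT 1 to 5 and 1989, 1942, 1886 and 1883 in dKO 1 to 4, and the groups overlapped. Sf3b5, a small SF3b subunit, had 26.4, 27.9, 26.0, 27.4 and 28.6 CPM in WT 1 to 5 and 32.0, 31.7, 32.95 and 36.1 CPM in dKO 1 to 4. The groups were clearly apart and the relative change was 0.28 (SE 0.06, adjusted p = 0.00393), with the call kept whichever library was left out; without WT 2, 3 and 4 it was 0.26 (adjusted p = 0.106). Sf3a3, a subunit of SF3a, had 114, 100.3, 102, 103 and 115 CPM in WT 1 to 5 and 127, 119, 118 and 119 CPM in dKO 1 to 4. WT 1 and WT 5 were high among the WT libraries. The change was 0.18 (SE 0.05, adjusted p = 0.0198), and the call was lost without WT 2, WT 3, WT 4 or dKO 1 (adjusted p = 0.0533 to 0.0593). For Sf3a3 the change was 0.08 (adjusted p = 0.439) without WT 2, 3 and 4. Sf3b3, a large scaffold subunit of SF3b, had 335, 305, 287, 305 and 323 CPM in WT 1 to 5 and 356, 351, 337 and 339 CPM in dKO 1 to 4. The change was 0.15 (SE 0.05, adjusted p = 0.0314), and the call was lost without WT 2, WT 3, WT 4, dKO 1 or dKO 2 (adjusted p = 0.0721 to 0.0781). For Sf3b3 the change was 0.07 (adjusted p = 0.507) without WT 2, 3 and 4. Sf3b1, the subunit that clamps the branch site and the SF3 gene with the highest level per length, had 804, 762, 760.1, 745 and 834 CPM in WT 1 to 5 and 862, 808, 788 and 776 CPM in dKO 1 to 4. Its groups overlapped, with a relative change of 0.05 (SE 0.05, adjusted p = 0.507). Sf3a1, the SF3 gene with the lowest fold change, had 165, 160.5, 154, 155 and 169 CPM in WT 1 to 5 and 168, 169, 162 and 162 CPM in dKO 1 to 4, also overlapping, and a change of 0.04 (SE 0.04, adjusted p = 0.421). Sf3a2, Sf3b2 and Sf3b4 had 0.08, 0.05 and 0.12 and did not pass.

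Of the 13 Prpf genes, 2 rose relative to the library and 0 fell, beside 13.7% and 12% of all genes. In this family 11 genes lay above 0 and 2 below (median 0.08). Per cell, where 61.1% of all genes rose, all 13 rose (median 0.52). Summed, they had 2149, 2085, 2016, 2066 and 2179 CPM in WT 1 to 5 and 2250.2, 2208, 2160.0 and 2169.7 in dKO 1 to 4, with overlap through WT 5. Prpf19, the ubiquitin ligase of the Prp19 complex, had 216, 187, 191, 189 and 212 CPM in WT 1 to 5 and 220.4, 225, 217 and 219 CPM in dKO 1 to 4. WT 1 and WT 5 lay just under the dKO libraries and WT 2, 3 and 4 well under them. The change was 0.15 (SE 0.05, adjusted p = 0.0441). The call was kept only when WT 1 or WT 5 was left out and lost without any other library (adjusted p = 0.0716 to 0.109). Without WT 2, 3 and 4 the change in Prpf19 was 0.04 (adjusted p = 0.681). Prpf38b, a relative of the tri-snRNP factor Prpf38a, had 100.2, 94.0, 98.98, 98.4 and 100.0 CPM in WT 1 to 5 and 112, 104, 109 and 100.4 CPM in dKO 1 to 4. dKO 4 was barely above WT 1, and the change was 0.12 (SE 0.04, adjusted p = 0.0495). The call was lost when any library but dKO 4 was left out (adjusted p = 0.0531 to 0.127). For Prpf38b the change was 0.09 (adjusted p = 0.444) without WT 2, 3 and 4. Prpf4, of the U4/U6 snRNP and the Prpf gene with the lowest level per length, had 64.5, 60.4, 59.8, 62.3 and 62.5 CPM in WT 1 to 5 and 64.8, 71.8, 65.6 and 65.6 CPM in dKO 1 to 4. dKO 2 was highest by far, and the change was 0.11 (SE 0.04, adjusted p = 0.0762). Prpf8, the U5 protein at the heart of the catalytic centre and the Prpf gene with the highest level per length, had 584, 563, 534, 549.6 and 619.6 CPM in WT 1 to 5 and 607, 609.9, 582 and 608 CPM in dKO 1 to 4. WT 5 was above all 4 dKO libraries, and the change was 0.08 (SE 0.05, adjusted p = 0.257).

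Prpf40b, a WW-domain protein related to a U1-associated yeast factor, had 72.0, 77.8, 76.8, 79.6 and 80.0 CPM in WT 1 to 5 and 64.2, 73.6, 75.03 and 69.6 CPM in dKO 1 to 4. dKO 1 and dKO 4 lay below every WT library and dKO 2 and dKO 3 above WT 1, and the change of -0.13 (SE 0.05, adjusted p = 0.0815) was negative without passing; it passed when WT 1 was left out. Per cell it rose by the least among the 60 genes that rose, 0.31 (SE 0.11, adjusted p = 0.0198). Prpf18, a factor of the second catalytic step, was the other Prpf gene below 0 (-0.10); it did not pass with all libraries but did when dKO 1 was left out. Prpf3 and Prpf31 of the U4/U6 snRNP had 0.10 and 0.03, Prpf6, which links U5 to U4/U6, 0.04, the kinase Prpf4b 0.05, Prpf38a 0.11 and Prpf39 0.08. None of these passed relative to the library.

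**Figure D4:**
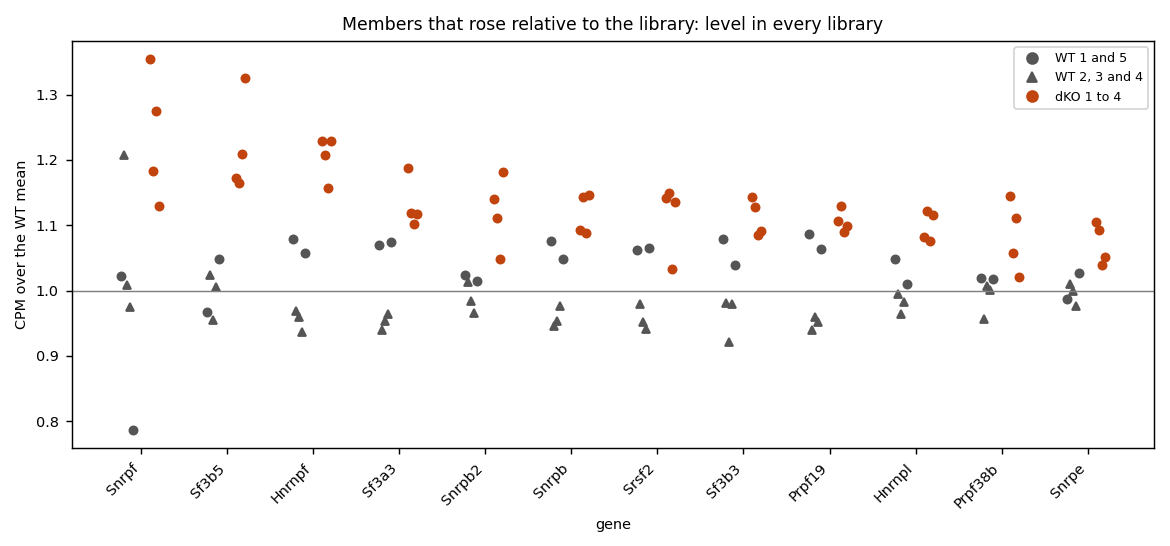
Level of the 12 genes that rose relative to the library, as CPM divided by the WT mean, in every library (grey circles WT 1 and 5, grey triangles WT 2, 3 and 4, orange circles dKO). For 10 genes every dKO library is above every WT library, and for Snrpf and Srsf2 the groups overlap; WT 1 and 5 both lie above WT 2, 3 and 4 in 9 of the 12 genes, all but Sf3b5, Snrpe and Snrpf.

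Of the 11 SR genes, 1 rose relative to the library and 0 fell, beside 13.7% and 12% of all genes. In this family 9 genes lay above 0 and 2 below (median 0.04). Per cell, where 61.1% of all genes rose, 10 of the SR genes rose (median 0.48). Their summed level was 3900.2, 3676, 3623, 3619 and 3855 CPM in WT 1 to 5 and 4099, 3984, 3734 and 3850.1 in dKO 1 to 4, with overlap. Srsf2, which binds exonic enhancers, had 427, 394, 383, 379 and 429 CPM in WT 1 to 5 and 459.8, 463, 416 and 457 CPM in dKO 1 to 4. dKO 3 lay below WT 1 and WT 5 while the other dKO libraries were above all WT. The change was 0.16 (SE 0.05, adjusted p = 0.0456). The call was lost without WT 2, WT 3, WT 4, dKO 1, dKO 2 or dKO 4 (adjusted p = 0.0967 to 0.110). For Srsf2 the change was 0.07 (adjusted p = 0.602) without WT 2, 3 and 4. Srsf5 had 312, 302, 298, 301 and 301 CPM in WT 1 to 5 and 324, 333, 305 and 351 CPM in dKO 1 to 4. Here too dKO 3 lay within the WT range, and the change was 0.12 (SE 0.04, adjusted p = 0.0605). Srsf10, which turns into a splicing repressor when it is dephosphorylated, had 358, 333, 330.0, 334 and 351 CPM in WT 1 to 5 and 405, 371, 345 and 348 CPM in dKO 1 to 4. dKO 1 was high and dKO 3 and dKO 4 lay within the WT range, with a change of 0.11 (SE 0.05, adjusted p = 0.150). Srsf7, the SR gene with the highest level per length, had 388, 357, 348, 341 and 378 CPM in WT 1 to 5 and 392, 379, 365 and 358 CPM in dKO 1 to 4 and a change of 0.04 (SE 0.05, adjusted p = 0.534), with overlap. Srsf12 had 8.72, 10.04, 10.3, 11.3 and 9.12 CPM in WT 1 to 5 and 9.58, 7.69, 9.16 and 9.16 CPM in dKO 1 to 4. The groups overlapped; its relative change of -0.16 (SE 0.10, adjusted p = 0.272) was the lowest of the 61 genes, and it was -0.01 (adjusted p = 0.988) without WT 2, 3 and 4. The other 6 did not pass: Srsf1, Srsf3 and Srsf6 had 0.09, 0.03 and 0.01, Srsf9 0.11, Srsf11 0.01 and Srsf4 -0.06.

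Of the 18 hnRNP genes, 2 rose relative to the library and 0 fell, beside 13.7% and 12% of all genes. In this family 14 genes lay above 0 and 4 below (median 0.05). Per cell, where 61.1% of all genes rose, all 18 rose (median 0.48). Summed, they had 8955, 8601, 8601, 8525 and 9149.7 CPM in WT 1 to 5 and 9322, 9234, 8849 and 8807 in dKO 1 to 4, with overlap. Hnrnpf, which binds runs of G, had 174, 156, 154, 151 and 170.3 CPM in WT 1 to 5 and 198, 194, 186 and 198 CPM in dKO 1 to 4. All dKO libraries were above all WT libraries; the change of 0.27 (SE 0.05, adjusted p = 0.00200) had the smallest adjusted p of the 61 genes and was kept whichever library was left out. For Hnrnpf it was 0.17 (adjusted p = 0.0857) without WT 2, 3 and 4. Per cell Hnrnpf rose by 0.71 (SE 0.11, adjusted p = 1.98e-06). Hnrnpl, which binds CA-rich RNA and whose promoter is printed above, had 449, 426, 413, 421 and 433 CPM in WT 1 to 5 and 463, 481, 461 and 478 CPM in dKO 1 to 4. The groups did not overlap, with a change of 0.14 (SE 0.04, adjusted p = 0.0200). The call was lost without WT 2, WT 3, WT 4, dKO 2 or dKO 4 (adjusted p = 0.0505 to 0.0586). For Hnrnpl the change was 0.09 (adjusted p = 0.381) without WT 2, 3 and 4. Hnrnpc, which binds tracts of U, had 403, 385, 368, 369.8 and 406 CPM in WT 1 to 5 and 436, 427, 410.4 and 411 CPM in dKO 1 to 4. Here too the groups did not overlap, and the change of 0.13 (SE 0.04, adjusted p = 0.05005) lay just outside the threshold.

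Hnrnpa1, the classical partner and opponent of SR proteins, had 98.9, 95.3, 96.5, 98.9 and 97.3 CPM in WT 1 to 5 and 86.2, 96.9, 96.6 and 87.7 CPM in dKO 1 to 4. dKO 1 and dKO 4 were low and dKO 2 and dKO 3 lay within the WT range; the change was -0.08 (SE 0.04, adjusted p = 0.174). Per cell it rose by 0.35 (SE 0.11, adjusted p = 0.00590), from 5.36, 4.74, 6.15, 6.03 and 6.07 counts per 1000 spike-in counts in WT 1 to 5 and 6.03, 8.16, 7.60 and 7.23 in dKO 1 to 4, where only dKO 1 lay within the WT range. Hnrnpa2b1, the member with the highest level per length, had 1216, 1152, 1191, 1166 and 1257 CPM in WT 1 to 5 and 1259, 1301, 1206 and 1170.0 CPM in dKO 1 to 4, overlapping groups and a relative change of 0.04 (SE 0.05, adjusted p = 0.553). Hnrnpr, the hnRNP gene with the lowest level per length, had 322, 317, 324, 305 and 309 CPM in WT 1 to 5 and 324, 319, 299.9 and 304 CPM in dKO 1 to 4 and a change of -0.02 (SE 0.04, adjusted p = 0.775), also with overlap. The other 12 genes did not pass; they ran from -0.07 for Hnrnph1 to 0.12 for Hnrnpu, a nuclear matrix protein that every dKO library had at a higher level than every WT library. Hnrnpul1 was the only other gene of these 12 below 0.

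The ratio of related genes within a library does not depend on scaling, and 9 pairs were compared by two-sided exact permutation tests, with Benjamini-Hochberg adjustment over the pairs. No pair passed after adjustment, but the smallest p this design allows is 0.00794. Adjusted over the 9 pairs that p becomes 0.0714, so a pair could not pass unless other pairs lay near the smallest p too. The adjusted result therefore cannot decide for a single pair. The log2 ratio of Hnrnph1 to Hnrnph2, close relatives that bind runs of G, was 3.09, 3.06, 3.08, 3.07 and 3.08 in WT 1 to 5 and 2.87, 3.02, 2.98 and 2.88 in dKO 1 to 4. All dKO libraries were below all WT libraries, a difference of -0.14 (SE 0.04; exact p = 0.00794, adjusted p = 0.0714), and -0.15 without WT 2, 3 and 4 (exact p = 0.133, with 0.0667 the smallest possible). The log2 ratio of Srsf10 to Srsf12 differed by 0.26 (SE 0.12; exact p = 0.0794, adjusted p = 0.238), and by 0.06 without WT 2, 3 and 4. A further 6 pairs differed by no more than Hnrnpa1/Hnrnpa3 did (-0.15), with exact p-values of 0.151 or more.

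**Figure D5:**
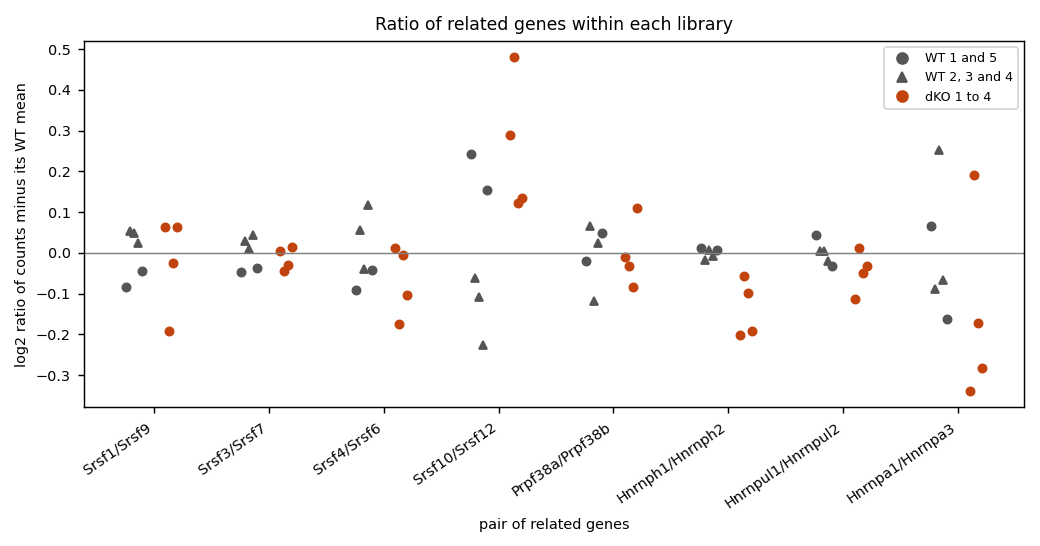
Log2 ratio of counts of 8 pairs of related genes in every library, minus the mean of the WT libraries (grey circles WT 1 and 5, grey triangles WT 2, 3 and 4, orange circles dKO). In Hnrnph1/Hnrnph2 the 5 WT points lie together and all 4 dKO points lie below them; in the other 7 pairs the groups overlap.

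The other spliceosome and splicing genes, in 13 lists whose names do not match the rule, mostly rose per cell too: of 211 listed genes 190 were in the files and 189 were tested, and 181 rose and 0 fell, beside the 61.1% and 0.698% of all genes. Relative to the library 35 rose and 10 fell (median 0.04, against 13.7% and 12% of all genes), and 1 rose and 0 fell when WT 2, 3 and 4 were left out. In the list of snRNP assembly and import 6 of 16 rose and 0 fell (median 0.18), among them Gemin5, which reads small nuclear RNAs for the SMN complex (69.8 ± 1.18 CPM in WT and 82.7 ± 2.94 in dKO; log2 fold change 0.24), and Prmt5, which methylates Sm proteins (0.22). The Sm proteins are the cargo of that machinery, and their own counts are given above. Among exon junction and export genes 7 of 19 rose and 1 fell (median 0.11), with Ddx39 at 0.31 and Magoh, a core of the exon junction complex, at 0.27. LSm genes (4 rose and 1 fell of 13) included Lsm14a at 0.21 and Lsm14b at -0.25, which encode related proteins of cytoplasmic granules. In the U2 and branch site list 4 of 17 rose and 1 fell, with Rbm17 at 0.17 and Phf5a, an SF3b subunit outside the symbol rule, at 0.16. In the tri-snRNP list 3 of 13 rose (Usp39 0.12, Nhp2l1 0.14), in the Prp19 and activation list 2 of 22 (Bud31 0.15, Ppie 0.22), and in the minor spliceosome list 1 of 10 (Zrsr2 0.16; Snrnp48, which did not pass, 0.11), with 0 falls in each. None of the 8 U1 and 5′ splice site genes rose and 1 fell (Tia1 -0.23; Tial1, which did not pass, -0.07). By edgeR, 0 of 7 SR protein kinases passed, with Clk1 at -0.10 and Dyrk1a at -0.04, and 0 of 6 genes of the second step and disassembly, with Dhx8 at -0.08 and Dhx35 at 0.03; per cell all 13 rose. The 12 listed small nuclear RNAs are not analysed here.

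A few genes of these lists changed by more than any of the 61 did relative to the library. Mbnl2, a regulator of developmental exons, had 39.0 ± 1.99 CPM in WT and 87.9 ± 21.001 in dKO (SD, n = 5 and 4), a log2 fold change of 1.17 (SE 0.13, adjusted p = 1.52e-04), and it was the 1 gene of these lists that passed without WT 2, 3 and 4 (1.12, adjusted p = 0.0202). Ptbp1, the repressor of neuronal exons in progenitors, rose by 0.39 (SE 0.06, adjusted p = 7.87e-04), and was at 0.30 (adjusted p = 0.0539) without WT 2, 3 and 4. Srrm4, the activator of neuronal microexons, fell relative to the library: it had 60.7 ± 6.77 CPM in WT and 36.7 ± 5.64 in dKO, a change of -0.72 (SE 0.11, adjusted p = 9.00e-04), or -0.54 (adjusted p = 0.0589) without WT 2, 3 and 4. Per cell Srrm4 was not called as a fall, since 0 of the 189 tested genes of these lists fell by edgeR. Of the 34 hnRNP-like genes 6 rose and 4 fell, and of the 24 SR-related genes 2 rose, Rsrc1 (0.21) among them, and 2 fell. The 61 general factors lay between these extremes, none beyond 1.24-fold in either direction.

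Markers of neurons, intermediate progenitors, radial glia and the telencephalon moved with the genotype relative to the library. Few or no endothelial, pericyte and meningeal, microglial and choroid plexus markers were called. Cell shares and levels within cells cannot be told apart here. Of 17 neuron markers 8 fell and 0 rose relative to the library (summed level 3129 to 3943 CPM in WT and 2648 to 2977 in dKO). Of 8 intermediate progenitor markers 6 fell (623 to 710.2 CPM in WT and 528 to 565 in dKO), while of 11 radial glia markers 4 rose and 2 fell (2587 to 2966 CPM in WT and 3956 to 4376 in dKO). The median log2 fold change of the radial glia markers was 0.07, so their higher sum does not stand for most of the list. Telencephalon markers were present in every library and 4 of 8 fell (557 to 592 CPM in WT and 407 to 466 in dKO). Blood was in the tissue: erythroid markers summed to 3089.5 to 7253 CPM in WT and 2295 to 3840.1 in dKO, and 3 of 12 fell. Endothelial markers (1 of 9 rose) summed to 241 to 313 CPM in WT and 239.5 to 313 in dKO, pericyte and meningeal markers (0 of 10 called) to 889 to 1102 CPM in WT and 812 to 1134 in dKO, microglial markers (0 of 9 called) to 53.7 to 65.3 CPM in WT and 62.7 to 82.04 in dKO, and choroid plexus markers (1 of 7 fell) to 118 to 447 CPM in WT and 166 to 225 in dKO. Without WT 2, 3 and 4, fewer markers passed: 1 neuron, 2 intermediate progenitor, 2 telencephalon and 4 erythroid markers fell, 3 radial glia markers rose, and no other marker was called. Per cell, where 61.1% of all genes rose and 0.698% fell, 4 of 17 neuron markers rose and 0 fell. Of 8 intermediate progenitor markers 1 rose and 0 fell, of 8 telencephalon markers 2 rose and 2 fell, and of 11 radial glia markers 9 rose and 1 fell. These lists centred on log2 values of 0.13, 0.14, 0.12 and 0.50 in that order, and all genes on 0.43 (medians). Neuron, intermediate progenitor and telencephalon markers thus lagged behind the typical gene per cell, and radial glia markers did not. Erythroid markers (0 of 12 rose and 1 fell, median 0.02) and choroid plexus markers (2 of 7 rose and 0 fell, median 0.02) lagged too. Endothelial (6 of 9 rose, median 0.36), pericyte and meningeal (6 of 10, median 0.49) and microglial markers (7 of 9, median 0.63) mostly rose per cell, and 0 fell. No marker was at 0 in any library. The part of these shifts in the changes of splicing factors, Ptbp1 and Srrm4 among them, was not tested.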

How the data were processed

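The deposited files give raw counts of reads for each gene symbol in each library, made by the authors with STAR and HTSeq on mm9, per the submitters' processing notes; versions, annotation and strand setting were not given in the sources used here. Rows for reads in no gene, in several places or in several genes were kept out of library sizes (no-gene reads: 32.0% to 41.3% of a library). The libraries came from a stranded kit and equal RNA mass, per the labels, so RNA per cell shows only in the ratio to spike-ins. Genes were kept by filterByExpr (17182) and tested with edgeR 4.0.16 in R 4.3.3 on all 9 libraries (glmQLFit, glmQLFTest) with TMM or with the total spike-in count as library size, adjusted by Benjamini-Hochberg over all genes (threshold 0.05). SE is the log2 fold change over the root of F. CPM are TMM-scaled. Ratios used counts + 0.5 and exact permutation tests in Python 3.11.15. Transcript lengths are medians of GENCODE vM21 coding transcripts with a RefSeq match (GRCm38), another build than the counts. Alternatives were DESeq2 1.42.0, limma-voom 3.58.1, other scalings and filters, a covariate, a replicate block and left-out libraries. Named genes: in each family the 3 smallest adjusted p, the extremes of fold change and of level per length; in each other list the 2 smallest adjusted p. The members and lists were chosen with earlier results of these data known. P-values measure spread between libraries, which includes the distance of WT 2, 3 and 4 from the other WT libraries, with litters unknown. The single values of 1 gene and 1 ratio are not reported here.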

Additional observations from a re-analysis of the deposited data

Results flagged for a closer look

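In 4 of 134 groups of 4 or 5 libraries checked, the highest or lowest library stood far from the others of its genotype, relative to the range; chance gives about 1 in 20. Prpf38b had 94.0 CPM in WT 2, against 98.4 to 100.2 in the other WT libraries. Prpf4 had 71.8 CPM in dKO 2, against 64.8 to 65.6 in the other dKO libraries. Prpf8 had 582 CPM in dKO 3, against 607 to 609.9 in the others. Srsf2 had 416 CPM in dKO 3, against 457 to 463 in the others.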

How the results depend on the processing

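Per cell, the count of 60 rises held from 57 (without WT 2, 3 and 4) upward, and 58 to 60 with a library left out. Over all per-cell fits, 39.0% (no filter) to 72.1% (mean count of 50) of all genes rose. The relative count was less stable, and the share of all genes that rose moved too. In the main fit 12 genes rose, beside 13.7% of all genes. The count and share were 15 and 14.5% with DESeq2, 14 and 14.3% with limma-voom, and 7 and 12.6% with upper-quartile scaling. They were 2 and 5.79% with the no-gene share as a covariate, 8 and 7.96% with no filter, and 9 and 15.8% at a mean count of 50. Without WT 2, 3 and 4, where fewer samples were fitted, they were 0 and 2.51%. Leaving out a library in turn gave 3 to 14 rises, beside 10.4% to 14.3% of all genes. It gave 0 to 1 falls (Prpf40b without WT 1, Prpf18 without dKO 1). Among other spliceosome genes relative rises went from 35 to 1 and falls from 10 to 0 without WT 2, 3 and 4, and limma-voom gave 1 fall per cell in place of 0. The causes were not tested. With the replicate number as a block 11 genes rose, 8 of them among the 12, and 60 rose per cell. Of all genes, 10.8% rose relative to the library and 61.0% per cell in these fits. Same-numbered libraries did not deviate together (correlations -0.16, -0.13, -0.29 and 0.16). With no litter given and WT 2, 3 and 4 apart from the other WT libraries, these values cannot show whether the numbers pair libraries. Of the values of the genes given by library and of the ratios, each under an alternative, 885 stayed on their side of the threshold, 99 lost the call and 8 gained it, and 0 reversed. This total pools the relative calls with per-cell values and with genes and ratios that were not called at first. Of the 12 relative calls 9 were lost in at least 1 fit with a library left out, against 2 of the 60 per-cell calls. The per-cell log2 fold change of each of these genes was its relative value plus 0.43 to 0.44. The per-cell calls thus share an offset set by the spike-in totals and are not separate results. Standard errors of 0.03 to 0.10 (log2, relative) and 0.10 to 0.15 (per cell) limit what 5 and 4 libraries could resolve.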
